A study of Homo sapiens with 8 samples.

Results

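The genes described are 33 genes of endoplasmic reticulum (ER) protein folding and of the unfolded protein response, matched by gene symbol. All 33 were among the 14668 gene symbols of the deposited count table, and all 33 passed the filter on low counts in both assays. The cells were T3M4, an established human pancreatic cancer cell line. One arm expressed a guide RNA against METTL13 (sgMETTL13), the methyltransferase of the elongation factor eEF1A, and the other the control guide labelled sgControl. Cells of both arms had 18 h of serum starvation followed by 2 h in 10% FBS. Libraries of poly(A) RNA measured mRNA, and ribosome profiling measured footprints, the mRNA fragments that ribosomes protect from nuclease. Each of the 4 groups, sgMETTL13 footprints, sgControl footprints, sgMETTL13 RNA and sgControl RNA, held 2 libraries, and 1 guide against METTL13 is named in the labels. Whether the replicates came from separate cultures is not stated, and the p-values therefore describe the spread between these libraries alone.

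Proteins of the secretory pathway enter the ER through the SEC61 channel and are folded there by the HSP70 chaperone BiP (HSPA5), the HSP90 chaperone HSP90B1, lectin chaperones and disulfide isomerases. Proteins that do not fold are drawn back to the cytosol and degraded, a process called ER-associated degradation. When unfolded proteins accumulate, the membrane sensors IRE1 (ERN1), PERK (EIF2AK3) and ATF6 start the unfolded protein response. IRE1 splices the mRNA of the transcription factor XBP1, PERK slows translation initiation, and ATF6 is cut to release a transcription factor. Secretory epithelia such as the exocrine pancreas depend heavily on this system. Counts per gene cannot tell spliced from unspliced XBP1 mRNA, nor whether a sensor was active.

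ATF6 and XBP1 are known to act through short promoter elements, and the matches among the 33 genes are shown because the response is known best through them. Of the 33 genes, 31 had a promoter in the RefSeq table (GRCh38.p14), all but PDIA3 and DERL1. The 250 bases before each start site were searched on both strands for 3 motifs: the ER stress response element ERSE (CCAAT and CCACG with 9 bases of any kind between), ERSE-II (ATTGG and CCACG with 1 base between) and the core of the unfolded protein response element (TGACGTGG). ERSE was found in 6 members and in 0.143% of 11909 promoters of genes in the count table, ERSE-II in 3 members and 0.0924%, and the core element in 2 members and 0.655%. A match is a description of the letters, and binding was not measured here. The 33 genes were chosen for this response, so these shares are no test of enrichment. Each sequence below reads 5′ to 3′ in the direction of its gene, with the motif in capitals and 10 flanking bases on each side in lower case. The proximal match of HSP90B1, both ERSE-II of HYOU1 and the matches of CRELD2, CALR, SDF2L1 and DNAJC10 lie on the opposite strand of their gene.
HSPA5 ERSE (chr9:125241381-125241419, minus strand): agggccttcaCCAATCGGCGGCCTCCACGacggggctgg
HSP90B1 distal ERSE (chr12:103930206-103930244, plus strand): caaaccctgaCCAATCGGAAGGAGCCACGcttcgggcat
HSP90B1 proximal ERSE (chr12:103930311-103930349, plus strand): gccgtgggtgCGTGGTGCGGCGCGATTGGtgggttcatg
XBP1 ERSE (chr22:28800593-28800631, minus strand): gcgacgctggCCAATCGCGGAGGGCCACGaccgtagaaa
CRELD2 ERSE (chr22:49918544-49918582, plus strand): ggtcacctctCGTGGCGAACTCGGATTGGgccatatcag
CALR ERSE (chr19:12938374-12938412, plus strand): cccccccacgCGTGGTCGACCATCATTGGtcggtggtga
CANX ERSE (chr5:179698768-179698806, plus strand): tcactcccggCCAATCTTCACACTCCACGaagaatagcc
HYOU1 distal ERSE-II (chr11:119057370-119057400, minus strand): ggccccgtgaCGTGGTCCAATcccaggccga
HYOU1 proximal ERSE-II (chr11:119057264-119057294, minus strand): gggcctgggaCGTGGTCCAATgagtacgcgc
SDF2L1 ERSE-II (chr22:21642104-21642134, plus strand): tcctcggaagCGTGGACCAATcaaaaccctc
HERPUD1 ERSE-II (chr16:56932015-56932045, plus strand): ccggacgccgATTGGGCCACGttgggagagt
DNAJC10 core element (chr2:182716122-182716149, plus strand): gcgcacaccgCCACGTCAacctaaacct
HYOU1 core element (chr11:119057376-119057403, minus strand): gctggccccgTGACGTGGtccaatccca
The core element of HYOU1 overlaps its distal ERSE-II. The CANX window lies before the start site that the RefSeq table uses, which is inside the annotated gene.

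Library totals ran from 8916807 to 9837253 counts in sgMETTL13 footprints, 6063885 to 8181707 in sgControl footprints, 39899139 to 48353722 in sgMETTL13 RNA and 20860953 to 36436106 in sgControl RNA. The targeted gene was lower in every sgMETTL13 library, METTL13 footprints being at 20.1 and 26.2 CPM (counts scaled to library size with TMM factors) in sgMETTL13 against 65.2 and 57.8 CPM in sgControl. The sgMETTL13 RNA replicates stood apart from each other, with an SD of their log2 difference over genes of 0.847 against 0.365 between the sgControl RNA replicates. The same SD was 0.277 between sgMETTL13 footprint replicates and 0.326 between sgControl footprint replicates. All 6 epithelial markers were present, with a summed mRNA level of 2863 to 4177 CPM in sgMETTL13 and 3613 to 4144 CPM in sgControl. The 2 leukocyte markers in the table summed to at most 0.148 CPM in sgMETTL13 RNA and 0.135 CPM in sgControl RNA, and PRSS1, the acinar marker in the table, was at 0 in 3 of the 4 RNA libraries. Fibroblast markers summed to 23.6 to 32.8 CPM in sgMETTL13 RNA and 26.98 to 32.7 CPM in sgControl RNA, most of it COL1A1.

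Footprints of the ER genes moved in both directions in sgMETTL13 cells. Of the 33 genes 7 rose (SEC61G, DNAJB9, ATF6, SEC61B, DNAJC3, SEL1L and HSP90B1) and 5 fell (DERL1, SIL1, CRELD2, HYOU1 and PDIA4), by edgeR's quasi-likelihood test at an adjusted p below 0.05 over all genes. Together they are 36.4% of the 33 genes, where 21% of all genes were called in either direction. By direction they are 21.2% higher and 15.2% lower, where 8.94% of the 10714 genes tested were higher and 12% lower. Sizes were moderate, between 0.315 and 0.876 on the log2 scale in either direction, and no member changed 2-fold. The median log2 fold change was 0.05 over the 33 genes and 0.01 over all genes tested. The arms did not overlap in 15 genes that were higher in sgMETTL13 and in 12 that were lower, where 32% of all genes did so in each direction. As a share of all footprints the 33 genes held 1.31% (95% exact binomial interval 1.30 to 1.31) and 1.32% (1.31 to 1.33) in sgMETTL13, against 1.31% (1.30 to 1.32) and 1.35% (1.34 to 1.36) in sgControl. The counts depended on the libraries. Each fit without 1 library sets a single library against 2, and assumes that the lone one varies as the other arm does. Without sgControl replicate 1, 7 members were called higher and 7 lower, where 12.7% and 14.6% of all genes were. Without sgControl replicate 2 the counts were 2 higher and 2 lower, where 2.86% and 4.64% of all genes were called. Without sgMETTL13 replicate 1 they were 4 and 2, beside 6.66% and 8.06% of all genes. Without sgMETTL13 replicate 2 they were 2 and 3, beside 2.33% and 4.11% of all genes, and DERL2, not called with all libraries, was 1 of the 3. DESeq2 did not call DNAJB9, DNAJC3, HSP90B1, SEC61B or PDIA4. When the footprint contrast was taken from one model of all 8 libraries, no member passed, 3 had an unadjusted p below 0.05, and the smallest adjusted p was 0.4955 by edgeR. The biological coefficient of variation was 0.261 in that model and 0.0992 with footprint libraries alone.

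**Figure D1:**
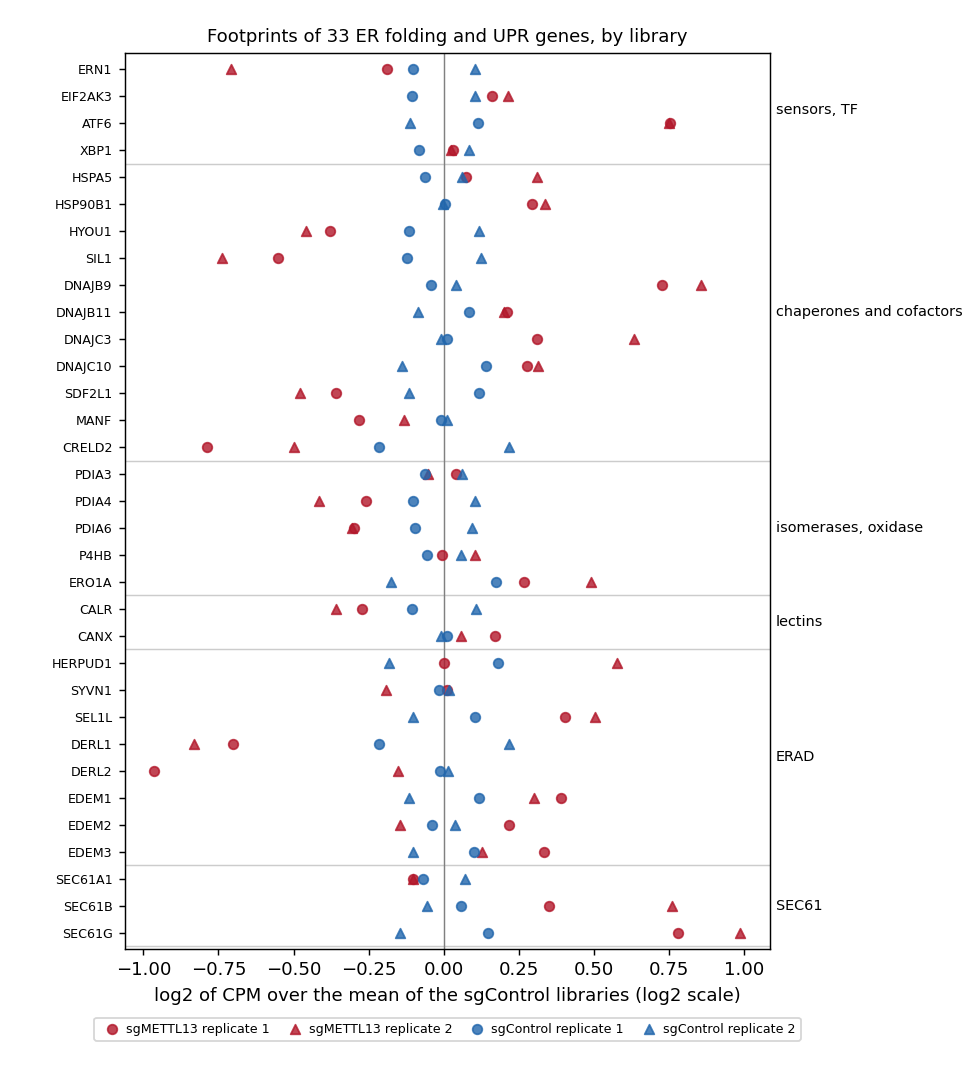
Footprints of each gene in each library, as log2 of CPM over the mean of the sgControl libraries, with genes grouped by role. Red symbols are sgMETTL13 and blue symbols sgControl, with circles for replicate 1 and triangles for replicate 2. Both sgMETTL13 libraries lie right of both sgControl libraries in 15 genes and left of them in 12.

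Among the sensors and transcription factors ATF6 rose and the other 3 did not pass the test, where 8.94% of all genes rose. ATF6, on chromosome 1 at 161766320 to 161964070, had 98.35 and 98.25 CPM of footprints in sgMETTL13 and 63.15 and 54.0 CPM in sgControl. The sgMETTL13 libraries were nearly equal and both far above the sgControl libraries. Its log2 fold change was 0.74 (SE 0.142, n = 2 per arm, adjusted p = 0.000484 by edgeR), and the call held with any 1 footprint library left out (0.63 to 0.86). ERN1 footprints lay at 16.1 and 11.2 CPM in sgMETTL13 against 17.1 and 19.7 CPM in sgControl, with a log2 fold change of -0.42 (SE 0.205, adjusted p = 0.145 by edgeR). EIF2AK3 had 19.9 and 20.6 CPM in sgMETTL13 and 16.6 and 19.15 CPM in sgControl, a log2 fold change of 0.19 (SE 0.185). XBP1 read 54.5 and 54.2 CPM in sgMETTL13, inside the range of 50.3 and 56.4 CPM in sgControl. The log2 fold change of XBP1 was 0.03 with an SE of 0.147.

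BiP itself did not pass, while both of its nucleotide exchange factors fell and a pair of its J-domain partners rose. For comparison, 12% of all genes fell and 8.94% rose. HSPA5 had 599 and 706 CPM of footprints in sgMETTL13 and 546 and 594 CPM in sgControl, a log2 fold change of 0.20 (SE 0.122, adjusted p = 0.264 by edgeR). HYOU1, an HSP70-like protein that exchanges nucleotide on BiP (chromosome 11 at 119044188 to 119057205), had 805 and 763 CPM in sgMETTL13 against 966 and 1137 CPM in sgControl. Both sgMETTL13 libraries of HYOU1 lay below both sgControl libraries. The log2 fold change of HYOU1 was -0.42 (SE 0.120, adjusted p = 0.0121 by edgeR). SIL1, the other exchange factor (chromosome 5 at 138946724 to 139198368), had 59.0 and 51.8 CPM in sgMETTL13 against 79.5 and 94.2 CPM in sgControl, a log2 fold change of -0.64 (SE 0.146, adjusted p = 0.00231 by edgeR). HYOU1 lost its call without sgControl replicate 2 (-0.31), sgMETTL13 replicate 1 (-0.47) or sgMETTL13 replicate 2 (-0.38), and SIL1 without sgMETTL13 replicate 2 (-0.55).

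The J-domain proteins stimulate the ATPase of BiP or bring it substrates, and 4 of them are among the 33 genes. Each of the 4 had more footprints in both sgMETTL13 libraries than in either sgControl library, as 32% of all genes did. Of the ER J-domain genes outside the 33, SEC63 rose (0.44), and DNAJC1 overlapped between the arms at 48.1 and 51.2 CPM in sgMETTL13 and 46.45 and 55.4 CPM in sgControl (-0.03, SE 0.151). DNAJB9 (chromosome 7 at 108569874 to 108574850) had 7.42 and 8.12 CPM in sgMETTL13 and 4.36 and 4.62 CPM in sgControl, a log2 fold change of 0.79 (SE 0.266, adjusted p = 0.0320 by edgeR). DNAJC3 (chromosome 13 at 95677139 to 95794988) had 38.0 and 47.5 CPM in sgMETTL13 and 30.9 and 30.4 CPM in sgControl, a log2 fold change of 0.48 (SE 0.162, adjusted p = 0.03365 by edgeR). The partners that did not pass were DNAJB11 and DNAJC10, the second of which is also a disulfide reductase. DNAJB11 read 464 and 461 CPM in sgMETTL13 against 425 and 378 CPM in sgControl (log2 fold change 0.20, SE 0.121). DNAJC10 read 77.1 and 79.0 CPM in sgMETTL13 against 70.0 and 57.8 CPM in sgControl (0.28, SE 0.144). DNAJB9 rested on few footprints, 73 and 74 counts in sgMETTL13 and 36 and 27 in sgControl, and was no longer called when any 1 footprint library was left out (0.73 to 0.85). DNAJC3 lost its call without sgControl replicate 2 (0.46) or sgMETTL13 replicate 2 (0.31), and DNAJC10 was called without sgControl replicate 1 (0.43).

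HSP90B1, the ER form of HSP90 (chromosome 12 at 103930410 to 103947926), rose by a small and even amount. It had 1891 and 1949 CPM of footprints in sgMETTL13 and 1548 and 1539 CPM in sgControl, a log2 fold change of 0.31 (SE 0.114, adjusted p = 0.0482 by edgeR). The replicates of each arm were close and the arms did not overlap. The call was nevertheless lost with any 1 library left out (0.29 to 0.33) and under DESeq2 size factors (0.31). Of the other luminal cofactors, CRELD2, a secreted ER protein (chromosome 22 at 49918634 to 49927537), fell. CRELD2 had 18.1 and 22.1 CPM in sgMETTL13 against 26.9 and 36.2 CPM in sgControl, a log2 fold change of -0.64 (SE 0.183, adjusted p = 0.0124 by edgeR). It lost its call without sgControl replicate 2 (-0.43) or sgMETTL13 replicate 1 (-0.51). SDF2L1, a partner of DNAJB11, had 11.6 and 10.7 CPM in sgMETTL13 and 16.1 and 13.7 CPM in sgControl (-0.43, SE 0.207). MANF, which binds BiP and can be secreted, had 201 and 222 CPM in sgMETTL13 and 242 and 246 CPM in sgControl (-0.21, SE 0.125). Neither SDF2L1 nor MANF passed (adjusted p = 0.138 and 0.250 by edgeR), although the arms of both were separate.

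Among the disulfide isomerases and their oxidase 1 of 5 fell and none rose, where 12% of all genes fell and 8.94% rose. PDIA4 (chromosome 7 at 149003051 to 149028505) had 701 and 629 CPM of footprints in sgMETTL13 against 781 and 900 CPM in sgControl, a log2 fold change of -0.34 (SE 0.121, adjusted p = 0.0452 by edgeR). PDIA6 had 787 and 784 CPM in sgMETTL13 and 907 and 1035 CPM in sgControl, just short of the threshold (-0.31, SE 0.118, adjusted p = 0.0634 by edgeR). ERO1A, which hands oxidising equivalents to the isomerases, had 81.6 and 95.1 CPM in sgMETTL13 and 76.5 and 60.0 CPM in sgControl (0.37, SE 0.148, adjusted p = 0.0749 by edgeR). The values of PDIA3, which acts on glycoproteins with the lectin chaperones, overlapped between the arms, at 940 and 881 CPM in sgMETTL13 and 875 and 953 CPM in sgControl. P4HB, the most studied isomerase, likewise overlapped, at 1314 and 1419 CPM in sgMETTL13 and 1269 and 1374 CPM in sgControl. PDIA4 lost its call without sgControl replicate 2 (-0.24), sgMETTL13 replicate 1 (-0.42) or sgMETTL13 replicate 2 (-0.26), under DESeq2 size factors (-0.34) and with library totals alone (-0.30). PDIA6 and ERO1A were called without sgControl replicate 1 (-0.40 and 0.56).

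The lectin chaperones hold glycoproteins that still carry a glucose, and neither passed. CALR, the soluble one, had 2494 and 2347 CPM of footprints in sgMETTL13 and 2799 and 3241 CPM in sgControl, so that both sgMETTL13 libraries were lower. The log2 fold change of CALR was -0.32 (SE 0.117, adjusted p = 0.0505 by edgeR). CALR passed under limma voom (-0.31), without the filter on low counts (-0.30) and without sgControl replicate 1 (-0.42). CANX, the membrane-bound one, had 1598 and 1478 CPM in sgMETTL13 and 1430 and 1412 CPM in sgControl (0.11, SE 0.115, adjusted p = 0.515 by edgeR).

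In ER-associated degradation DERL1 fell and SEL1L rose, where 12% of all genes fell and 8.94% rose. The other 6 of 8 genes did not pass. DERL1, a membrane protein of the retrotranslocation channel (chromosome 8 at 123013170 to 123042302), had 146 and 134 CPM of footprints in sgMETTL13 against 205 and 277 CPM in sgControl. Its log2 fold change of -0.78 (SE 0.140, adjusted p = 0.000264 by edgeR) was the largest fall of the set, and the call held with any 1 library left out (-0.98 to -0.55). The paralog DERL2 had 5.38 and 9.44 CPM in sgMETTL13 and 10.4 and 10.6 CPM in sgControl (-0.51, SE 0.254, adjusted p = 0.153 by edgeR), and was called without sgMETTL13 replicate 2 (-0.96). SEL1L (chromosome 14 at 81471547 to 81533853) is the adaptor of the ubiquitin ligase SYVN1. It had 104.8 and 112.5 CPM in sgMETTL13 and 85.2 and 73.9 CPM in sgControl, a log2 fold change of 0.45 (SE 0.138, adjusted p = 0.0207 by edgeR). SYVN1 itself had 60.5 and 52.5 CPM in sgMETTL13 and 59.3 and 60.7 CPM in sgControl (-0.09, SE 0.146). SEL1L lost its call without sgControl replicate 2 (0.35), sgMETTL13 replicate 1 (0.49) or sgMETTL13 replicate 2 (0.40).

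The mannosidase-like EDEM proteins, which mark glycoproteins for degradation, gave log2 fold changes of 0.33 for EDEM1 (SE 0.187), 0.05 for EDEM2 (SE 0.194) and 0.23 for EDEM3 (SE 0.149). EDEM3 had 65.8 and 57.1 CPM of footprints in sgMETTL13 and 56.1 and 48.7 CPM in sgControl. EDEM2 is contained in the read-through gene MMP24-AS1-EDEM2, and their footprint counts were almost the same. EDEM2 had 196 and 141 counts in sgMETTL13 and 138 and 103 in sgControl, and the read-through gene had 198 and 148 in sgMETTL13 and 141 and 103 in sgControl. The level of EDEM2 is therefore uncertain. HERPUD1, a membrane protein that recruits the degradation complex, rested on the fewest footprints of the set, 42 and 58 counts in sgMETTL13 and 40 and 22 in sgControl (0.28, SE 0.296).

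Of the SEC61 channel both small subunits rose and the pore-forming subunit did not pass, where 8.94% of all genes rose. SEC61G (chromosome 7 at 54752253 to 54759211) had 202 and 234 CPM of footprints in sgMETTL13 against 130.5 and 106.5 CPM in sgControl, a log2 fold change of 0.88 (SE 0.137, adjusted p = 5.4e-05 by edgeR). That was the largest rise of the set, and the call held with any 1 library left out (0.73 to 1.03). SEC61B (chromosome 9 at 99222282 to 99230615) had 26.5 and 35.2 CPM in sgMETTL13 and 21.6 and 20.0 CPM in sgControl, a log2 fold change of 0.56 (SE 0.179, adjusted p = 0.0252 by edgeR). SEC61A1 had 120.2 and 120.1 CPM in sgMETTL13 and 123 and 135 CPM in sgControl, a log2 fold change of -0.10 (SE 0.132). The call of SEC61B was lost without sgControl replicate 2 (0.50) or sgMETTL13 replicate 2 (0.35). SEC61G, like HSP90B1, HSPA5, XBP1 and PDIA3, has pseudogenes in the RefSeq annotation that could share short reads with it.

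**Figure D2:**
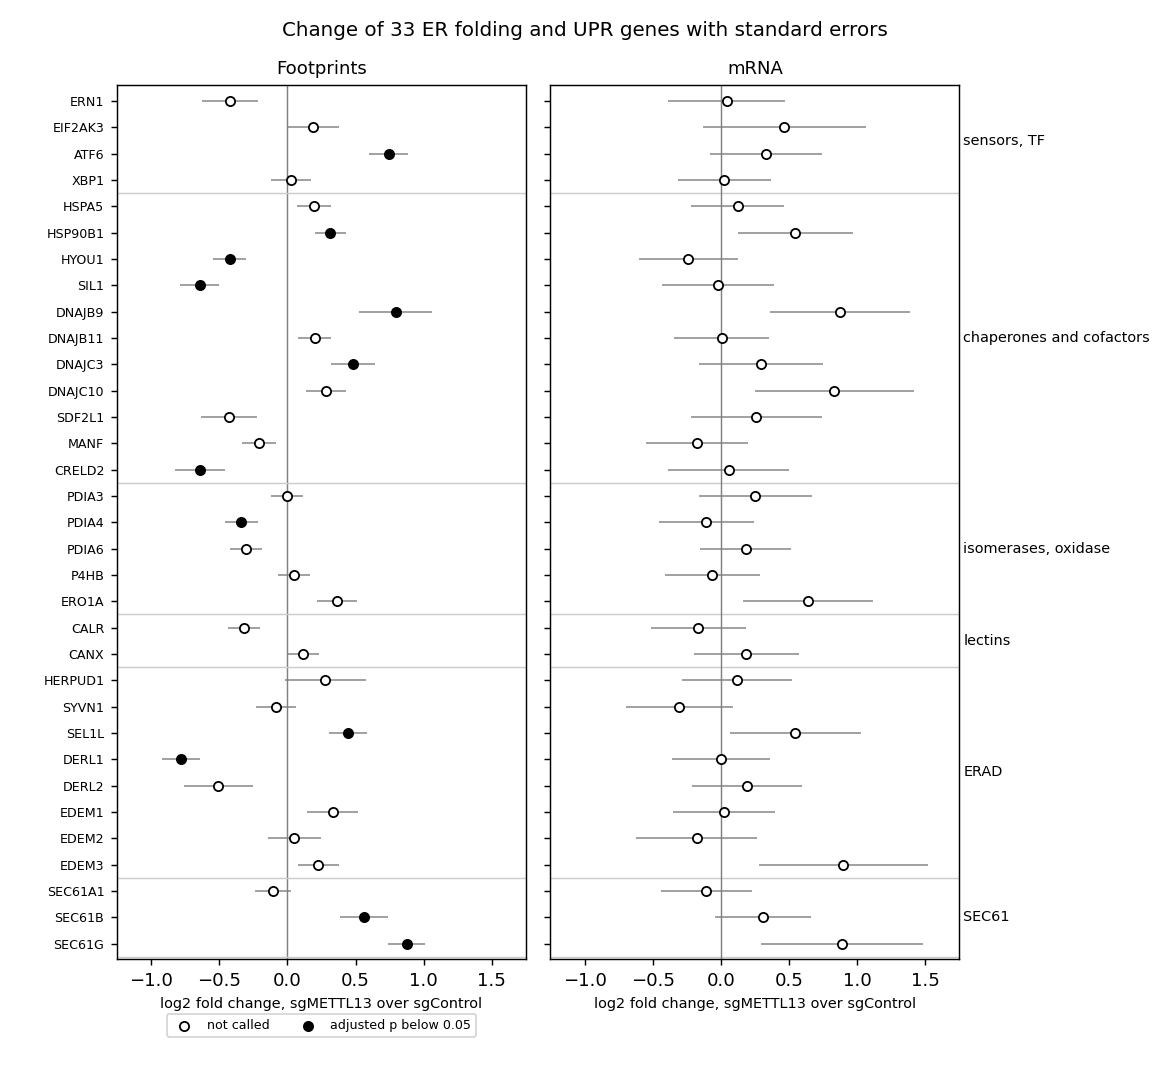
Log2 fold change of sgMETTL13 over sgControl with its standard error for each gene, in footprints on the left and mRNA on the right. Filled symbols passed an adjusted p below 0.05 over all genes tested. In footprints 7 genes are filled right of 0 and 5 left of it, and in mRNA none is filled.

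Of the 6 genes with ERSE, shown above, HSP90B1 footprints rose, CRELD2 footprints fell, and HSPA5, XBP1, CALR and CANX did not pass. Their log2 fold changes ran from -0.64 to 0.31 with a median of 0.07. Of the 3 genes with ERSE-II, HYOU1 fell while SDF2L1 and HERPUD1 read -0.43 and 0.28 without passing. Among the 10 genes with any of the 3 motifs 1 rose and 2 fell, with a median of 0.07. Among the other 23, which include PDIA3 and DERL1 whose promoters were not searched, 6 rose and 3 fell, with a median of 0.05. Both groups are to be read beside the 8.94% higher and 12% lower of all genes. A difference between the groups was not tested.

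**Figure D3:**
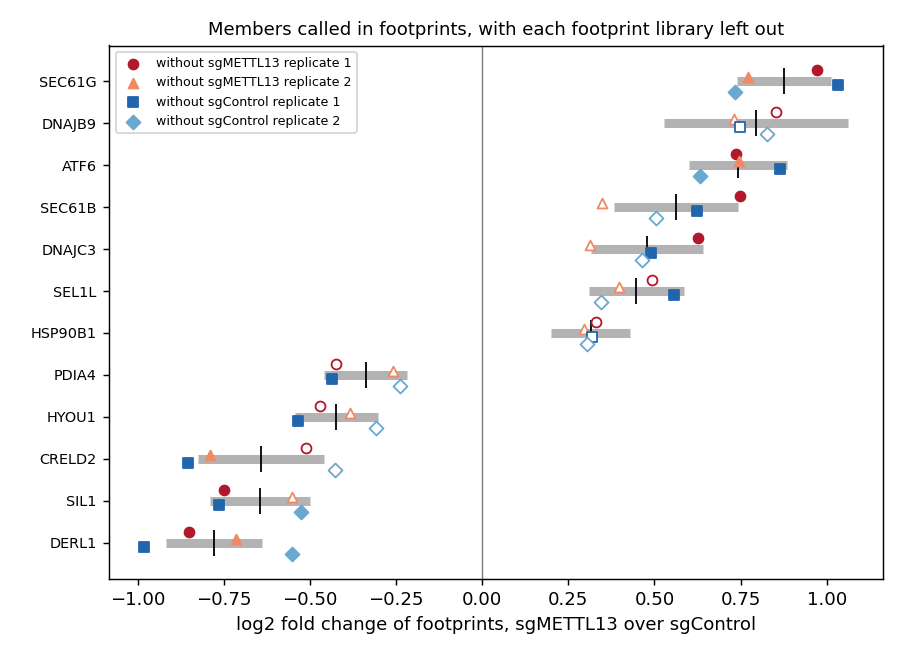
Log2 fold change of the 12 genes called in footprints (black tick, with a grey bar of 1 standard error each way) and the same value with each footprint library left out. Filled symbols remained past the threshold and open symbols did not. SEC61G, ATF6 and DERL1 are filled throughout, while DNAJB9 and HSP90B1 are open throughout.

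In mRNA none of the 33 genes passed, where 0% of the 12468 genes tested were called. None of the 33 had an unadjusted p below 0.05, and 100 of all genes did. DESeq2 and limma voom also called none. The targeted gene METTL13 did not pass in mRNA either, with a log2 fold change of -1.42 (SE 0.406, unadjusted p = 0.00457 by edgeR). The median log2 fold change of the 33 genes was 0.12 and that of all genes 0.04. Standard errors were 0.333 to 0.620 on the log2 scale, against 0.114 to 0.296 in footprints, so changes of the size seen in footprints were not detectable in mRNA. The arms did not overlap in 3 genes, DNAJB9, PDIA6 and DERL2, all higher in sgMETTL13, where 5.11% of all genes were higher without overlap and 6.84% lower. PDIA6 and DERL2 thus had more mRNA in both sgMETTL13 libraries and fewer footprints in both, and passed in neither assay. PDIA6 mRNA was at 377 and 371 CPM in sgMETTL13 and 363 and 296 CPM in sgControl (log2 fold change 0.18, SE 0.333).

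Much of the mRNA spread of these genes lay between the sgMETTL13 replicates. In 11 of the 33 genes replicate 1 exceeded replicate 2 more than 2-fold in sgMETTL13, where 22.4% of all genes did so. The same held for 2 of the 33 genes in sgControl, where 0.756% of all genes did so. EDEM3 mRNA was at 47.1 and 9.92 CPM in sgMETTL13 and 17.3 and 13.3 CPM in sgControl. DNAJC10 was at 147 and 31.4 CPM in sgMETTL13 and 57.0 and 43.5 CPM in sgControl. HSP90B1 was at 661 and 274 CPM in sgMETTL13 and 352 and 289 CPM in sgControl. In these 3 genes sgMETTL13 replicate 1 lay above both sgControl libraries and replicate 2 below both, a pattern seen in 9 of the 11. HSP90B1 and DNAJC10 footprints, by contrast, were close between the same-numbered sgMETTL13 libraries, and over the 33 genes no footprint replicate pair differed 2-fold. Without sgMETTL13 RNA replicate 2, 9 members were called higher in mRNA (DNAJB9, DNAJC10, DNAJC3, EDEM3, EIF2AK3, ERO1A, HSP90B1, SEC61G and SEL1L) at log2 fold changes of 0.73 to 1.62, where 18.7% of all genes were. That fit rests on a single sgMETTL13 RNA library. Without sgMETTL13 RNA replicate 1 none was called and the median of the 33 genes was -0.05.

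**Figure D4:**
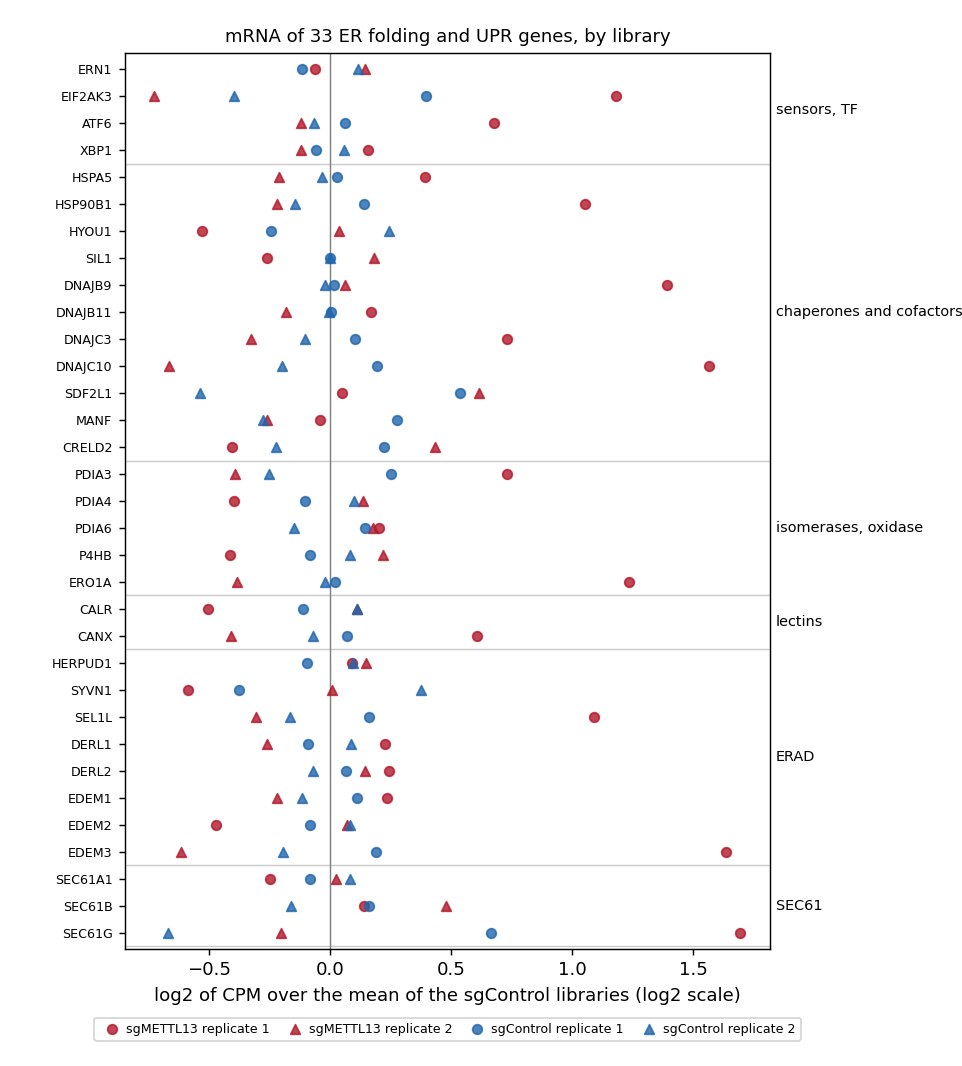
mRNA of each gene in each library, as log2 of CPM over the mean of the sgControl libraries, with genes grouped by role. Red symbols are sgMETTL13 and blue symbols sgControl, with circles for replicate 1 and triangles for replicate 2. The red circle and red triangle lie on opposite sides of the blue symbols in genes such as EDEM3, DNAJC10 and HSP90B1.

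The mRNA split moved with the footprint result. Of the 11 genes above 2-fold between the sgMETTL13 RNA replicates, 10 had a positive footprint change and 5 were among the 7 called higher. Among all genes tested in footprints 50.96% had a positive change and 8.94% were called higher. Those shares are of all genes and not of genes with such an RNA split, whose shares were not computed. The footprint and mRNA log2 fold changes of the 33 genes had a Pearson r of 0.632 and a Spearman rho of 0.636. Across the 33 genes the footprint log2 fold change and the log2 ratio of sgMETTL13 RNA replicate 1 over 2 had a Pearson r of 0.618 and a Spearman rho of 0.632, against 0.351 and 0.407 over all genes tested in both assays. These are descriptions across genes that share libraries and depth, and genes are not independent replicates. Footprint libraries do not enter that RNA ratio, and its part in the footprint result was not tested.

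Translational efficiency, the footprints per mRNA compared between the arms in one model of all 8 libraries, passed for none of the 33 genes, where 0% of 10446 genes were called. None of the 33 had an unadjusted p below 0.05 in edgeR (347 of all genes did), and DESeq2 and limma voom called none of the 33. A lysate block, which paired both assays by guide and replicate number, called none of the 33 and none of all genes. The median log2 difference of the 33 genes was -0.03 with that block and -0.07 without it. Standard errors ran from 0.295 to 0.793. DERL1 came closest, with an unadjusted p of 0.0652 (adjusted p = 0.999 by edgeR). Its ratio of footprint to mRNA CPM was 1.00 and 1.29 in sgMETTL13 against 1.748 and 2.09 in sgControl, with a log2 difference of -0.76 (SE 0.366). DERL1 mRNA was at 146 and 104 CPM in sgMETTL13 and 117 and 132 CPM in sgControl, so its footprints separated the arms while its mRNA did not. For SEC61G the ratio was 1.22 and 5.23 in sgMETTL13 and 1.60 and 3.29 in sgControl, which is a spread within each arm and a log2 difference of 0.02 (SE 0.793). Without sgMETTL13 RNA replicate 2, DERL1 (-0.97), DNAJC10 (-1.23) and EDEM3 (-1.35) were called lower in efficiency, where 12% of all genes were, and without sgMETTL13 RNA replicate 1 no member was.

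Other genes of the same pathways, from lists that do not include the 33, also moved both ways in footprints. Of 96 tested 13 rose and 7 fell, against 8.94% higher and 12% lower over all genes, with a median log2 fold change of 0.08. Among 11 subunits of oligosaccharyltransferase, which attaches glycans to entering proteins, 3 rose and none fell. They were STT3B, a catalytic subunit, at 0.46 (SE 0.129), TMEM258 at 0.87 (SE 0.263) and DAD1 at 0.59 (SE 0.185). Among 22 other translocation genes 4 rose and 1 fell. TRAM1 read 0.72 (SE 0.187) and its paralog TRAM2 -0.57 (SE 0.152), while the BiP-recruiting SEC63 read 0.44 and the signal recognition particle gene SRP14 0.51. Of 22 other folding enzymes 3 rose and 2 fell. FKBP2, a prolyl isomerase, had 80.7 and 85.8 CPM of footprints in sgMETTL13 against 135 and 183 CPM in sgControl. Its log2 fold change was -0.93 (SE 0.145, adjusted p = 5.2e-05 by edgeR). FKBP2 had almost no RNA counts, 2 and 7 in sgMETTL13 and 4 and 0 in sgControl, and was not tested in mRNA. The level of FKBP2 is therefore uncertain. ERO1B, the paralog of ERO1A, read 0.90 (SE 0.226), ERP44 0.39, and the membrane thioredoxin TMX4 -0.51.

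In the remaining lists, where 21% of all genes were called in either direction, 2 or 3 genes were called in each. Of 19 other ER-associated degradation genes, HERPUD2 was higher (0.77), and FAF2 (-0.51) and the ubiquitin ligase MARCHF6 (-0.40) were lower. Of 6 glycan-processing genes, UGGT2 rose (0.75, SE 0.229) and PRKCSH, the beta subunit of glucosidase II, fell (-0.41, SE 0.125). Of 16 other signalling genes, TMBIM6 rose (0.54, SE 0.145) and TRAF2, which binds IRE1, fell (-0.56, SE 0.149). The PERK-arm genes ATF4 (-0.21, SE 0.184), DDIT3 (-0.08, SE 0.187) and PPP1R15A (-0.33, SE 0.150) did not pass. Nor did TRIB3 (-0.30, SE 0.158), PPP1R15B (0.06, SE 0.134) and CHAC1 (0.60, SE 0.406) of the same list. CHAC1 rested on 25 and 16 footprints in sgMETTL13 and 12 and 8 in sgControl. The counts of these other genes depended on single footprint libraries, as did those of all genes, and the ranges of both are given below.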

How the data were processed

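Counts per gene symbol were deposited by the authors as raw whole numbers for 8 libraries. Bowtie 1.2.2, UMI-tools, cutadapt 1.18, HISAT2 2.0.4 and featureCounts are listed, and hg38 as the build, per the submitters' processing notes. Their order, the annotation, the strand setting and the treatment of multi-mapping reads are not given in the sources used here. Overlapping genes and copies are therefore uncertain. The test was edgeR's quasi-likelihood F test (version 4.0.16 in R 4.3.3) after the tool's default expression filter and TMM scaling within each assay, on the 4 footprint and 4 RNA libraries apart, and for translational efficiency as the interaction of assay and guide over 8 libraries. P-values were adjusted by Benjamini-Hochberg over all genes tested, with 0.05 as the threshold. The SE of a log2 fold change was obtained by dividing it by the root of its F statistic. Intervals cover counting error only. Alternatives were DESeq2 1.42.0, limma 3.58.1 voom, other scalings, no filter, a replicate block, for efficiency a lysate block, and each library left out. The named genes are all 33 members, METTL13 and, per other list, up to 4 called genes by smallest adjusted p. ATF4, DDIT3, PPP1R15A, TRIB3, PPP1R15B, CHAC1 and DNAJC1 were named after their values were seen. The members and lists were chosen with earlier results of these data known.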

Additional observations from a re-analysis of the deposited data

How the results depend on the processing

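Without 1 library, footprint calls ranged from 2 to 7 higher and 2 to 7 lower among the 33 genes, 254 to 1404 and 447 to 1614 among all genes (main 958 and 1287), and 0 to 17 and 1 to 11 among other pathway genes. In mRNA they ranged from 0 to 9 higher among the 33 genes and from 0 to 2359 higher and 0 to 150 lower among all genes, and for efficiency from 0 to 3 lower among the 33 genes and from 0 to 171 higher and 0 to 1258 lower among all genes. DESeq2 called 3 of the 33 genes higher in footprints, 607 of all genes and 8 other pathway genes, and for efficiency 1 gene higher and 4 lower. The model over all 8 libraries called 0 higher and 0 lower in footprints among the 33 genes, all genes and other pathway genes. Same-numbered libraries of the 2 arms deviated with r of -0.195 in footprints and 0.41 in RNA, and no label ties the numbers to a shared batch. With a replicate block 3 of the 33 genes were higher in footprints and 4 other pathway genes lower. DNAJB9, DNAJC3, HSP90B1, SEL1L and PDIA4 lost their calls with that block. With the numbers crossed, an alternative chosen after seeing the data, 8 of the 33 genes were higher and 7 lower, 21 other pathway genes were higher, and 1513 of all genes. The cause of these differences was not tested. No called footprint change of the 33 genes changed sign under any of these alternatives, which the separation of the arms in all 12 called genes nearly fixes. Depth limits HERPUD1, DNAJB9 and DERL2, which had under 100 footprints in each library.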

Other observations

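A few overlaps and replicate values belong to no comparison above. Besides EDEM2, 6 of the 33 genes overlap another gene of the count table, in pairs such as SYVN1 with MRPL49 and SEC61A1 with RUVBL1. PDE1A, which overlaps DNAJC10, had 7 and 2 RNA counts in sgMETTL13 and 1 and 0 in sgControl, far below those of DNAJC10. Across the 33 genes the log2 ratio of sgMETTL13 replicate 1 over 2 in footprints and the same ratio in mRNA had a Pearson r of -0.106, although the labels say that lysate served both assays. Libraries of the assays were paired here by replicate number.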
